A study of Mus musculus with 9 samples.

Results

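The desmosome genes Dsc1, Dsc2, Dsc3, Dsg2, Dsg3, Dsp, Pkp1, Pkp3, Jup and Ppl were followed by RNA sequencing through 9 mammary tumours of BlgCre-NeuKI mice. The 10 genes were picked by symbol from the 18484 genes counted in each tumour, and all 10 were found. In these mice the promoter of beta-lactoglobulin (Blg) drives Cre in luminal cells of the mammary gland, and Cre removes a stop cassette in front of an activated rat Neu allele (NeuNT) that was inserted into the mouse Erbb2 locus. Every animal, whatever the group, was heterozygous for BlgCre and for NeuKI on a mixed FVB and C57Bl6 background. The 5 high-amplified tumours, named for a high copy number of the Erbb2/Neu locus by quantitative PCR, were all adenocarcinomas of no special type, AC(NST). Virgin mice gave MS1163.1, MS1163.2 and MS1213.1, and parous mice gave MS1155.3 and MS1218.2. All of the 3 not/low-amplified epithelial tumours had grown in parous mice, and MS1210.1 and MS1349.1 were adenosquamous carcinomas (ASQC) whereas MS1166.1 was an AC(NST). The sarcoma MS1156.1, also without high amplification, came from a parous mouse. Ages are not given in the labels. Amplification, histotype and parity overlap in this set: no ASQC was high-amplified and no virgin mouse had a not/low-amplified tumour, so these labels cannot be told apart. By their numbers, both MS1163 tumours were taken from 1 mouse. The amplification label rests on copy number in genomic DNA by quantitative PCR. By droplet digital PCR the paper found MS1213.1 and MS1218.2 low. Its exome data showed amplification in MS1213.1 but not in MS1218.2. The paper also reports a lower purity of tumour cells for MS1218.2 than for the other samples.

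Desmosomes are the spot-like junctions that fasten neighbouring epithelial cells to each other and anchor their keratin filaments. Outside the cell, desmogleins (Dsg) and desmocollins (Dsc), which are cadherins, bind those of the next cell. Inside, plakoglobin (Jup) and plakophilins (Pkp) bind the cadherin tails, and desmoplakin (Dsp) links them to keratin. Simple epithelia such as the luminal layer of the mammary gland mainly use Dsg2 and Dsc2, and stratified squamous epithelia add Dsg1, Dsg3, Dsc1, Dsc3 and Pkp1 as well as the plakin periplakin (Ppl), which also takes part in the cornified envelope.

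The libraries held 12501225 to 23912429 counts on genes. Levels below are the deposited normalized counts, that is, counts divided by a size factor per tumour, unless a sentence says otherwise. A gene was tested when at least 10 counts were found in at least 3 of the 8 epithelial tumours, which 14007 genes did, and it was called when edgeR's adjusted p was under 0.05 and the fold change over 2. Of the 10 desmosome genes 9 were tested, since Dsc1 reached 10 counts in the 2 ASQC tumours alone. Erbb2 itself lay between 5284 and 105019 normalized counts in the high-amplified tumours and between 1532 and 2783 in the not/low-amplified tumours, so that these groups did not overlap at the locus that names them. Marker genes of epithelium were present in the 8 epithelial tumours, with summed levels of 36240 to 146831 on a scale common to the 9 tumours, against 466 in the sarcoma. Fewer cells of one type in a piece of tumour and less RNA per cell cannot be told apart in such bulk samples.

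**Figure D1:**
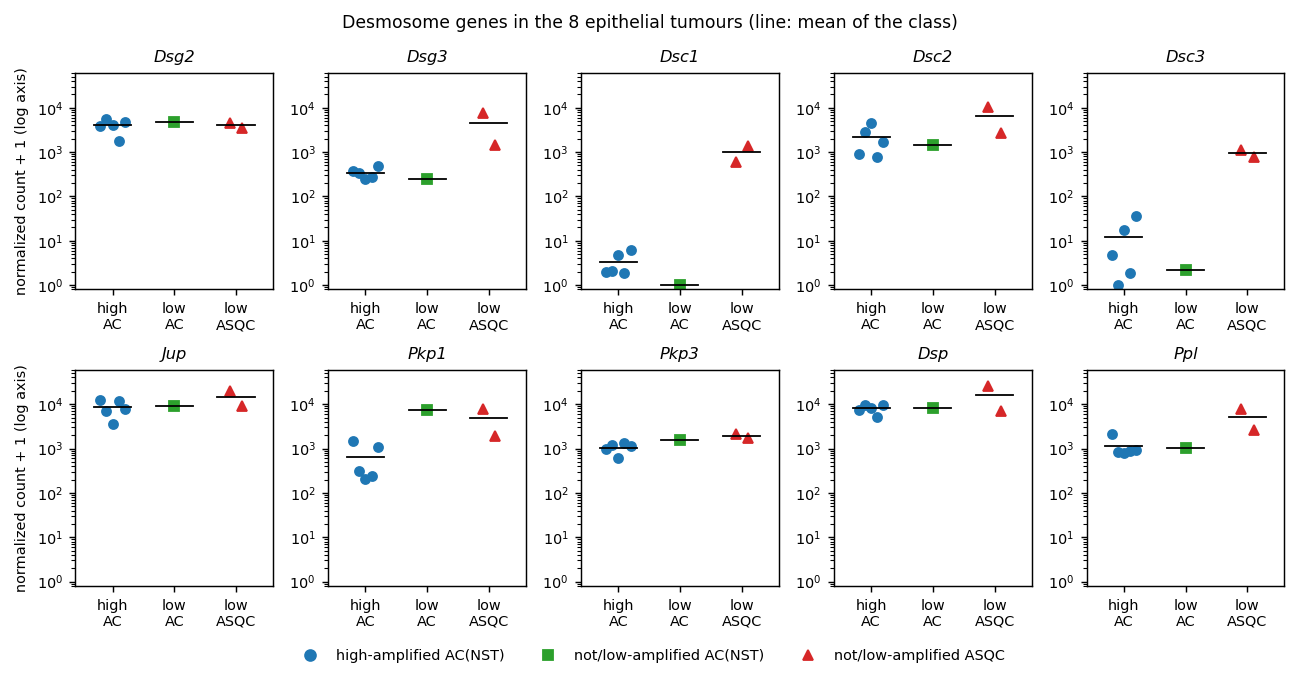
Normalized count + 1 on a log axis for each desmosome gene in the 5 high-amplified AC(NST), the 1 not/low-amplified AC(NST) and the 2 not/low-amplified ASQC tumours, each point being 1 tumour and each line the mean of the class. Dsc1 and Dsc3 stood far above the AC(NST) tumours in both ASQC tumours. Dsg3 was above them in both too, though in MS1349.1 by 3.04-fold over the highest AC(NST) tumour. Pkp1 was highest in MS1210.1 and MS1166.1, and the classes overlapped for Dsg2.

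Of the desmogleins, Dsg3 was higher in both ASQC tumours than in any AC(NST) tumour, whereas the histotypes overlapped for Dsg2. Dsg3 is the desmoglein of basal squamous cells and lies on chromosome 18 at 20510274 to 20547459 of mouse build GRCm38, on the plus strand, next to Dsg2 at 20558074 to 20604521. Among the high-amplified tumours Dsg3 was at 477 normalized counts in MS1155.3, 380.4 in MS1213.1, 333 in MS1163.1, 269 in MS1218.2 and 241 in MS1163.2. It was at 249.8 in the not/low-amplified AC(NST) MS1166.1, and the ASQC tumours MS1210.1 and MS1349.1 were at 7488 and 1449. The lower ASQC tumour was thus 3.04-fold above the highest AC(NST) tumour, and the groups by histotype did not overlap. By edgeR, Dsg3 rose 13.7-fold in ASQC against AC(NST) (log2 fold change 3.78, SE 0.49, adjusted p = 0.0211). It was the only one of the 9 tested desmosome genes that was called higher in ASQC, where 0.221% of the 14007 genes were called, and none was called higher in AC(NST), where 0.0143% were. The call held in 9 of 20 other ways of testing and was lost in 11, with adjusted p up to 0.541 among the parous tumours alone. With the MS1163 tumours, which share a mouse number, added into 1 it was lost (adjusted p = 0.0545). In all 20 the log2 fold change was 2.13 or more and the unadjusted p at most 0.00272. Without MS1210.1 the log2 fold change was 2.13 (adjusted p = 0.289).

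Dsg2 is the desmoglein of simple epithelia. Its normalized counts were 3908, 5573, 4181, 1770 and 4751 in the high-amplified tumours in the order MS1213.1, MS1163.1, MS1163.2, MS1218.2 and MS1155.3. They were 4637 and 3554 in the ASQC tumours MS1210.1 and MS1349.1, and 4784 in MS1166.1. Both ASQC tumours lay inside the range of the AC(NST) tumours, and MS1218.2 alone was below 3554. In MS1218.2 the summed level of 8 mesenchymal marker genes was 391900, against 33195 to 115751 in the other 7 epithelial tumours, and its part in the low Dsg2 was not tested. The log2 fold change of Dsg2 was -0.02 (SE 0.42) for ASQC against AC(NST) and -0.08 (SE 0.36) for high-amplified against not/low-amplified tumours, with adjusted p by edgeR of 0.994 and 0.905. Each of these signs turned in at least 1 other way of testing.

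The desmocollin genes split in the same manner, with Dsc1 and Dsc3 nearly absent from AC(NST) tumours and Dsc2 expressed in all 8. Dsc3, a desmocollin of basal and lower squamous layers, lies at 19960930 to 20002351 of chromosome 18 on the minus strand. Its normalized counts were 3.85, 0, 16.2, 0.93 and 34.8 in the high-amplified tumours in the order given for Dsg2, and 1.19 in MS1166.1. The ASQC tumours MS1210.1 and MS1349.1 were at 1113 and 773, so that the lower ASQC tumour was 22.2-fold above the highest AC(NST) tumour, MS1155.3. The edgeR log2 fold change was 6.67 (SE 1.14) with an adjusted p of 0.0621, which missed the threshold. In 6 of 20 other ways of testing Dsc3 did pass and in 14 it did not, with adjusted p up to 0.669. Those that passed included DESeq2 (adjusted p = 1.25e-05) and edgeR without MS1155.3, the AC(NST) tumour with the most Dsc3 (adjusted p = 0.0309).

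Dsc1, the desmocollin of upper squamous layers, lies at 20084184 to 20114871 on the minus strand. The ASQC tumours MS1210.1 and MS1349.1 held 844 and 1870 reads of it, and no AC(NST) tumour held more than 4. In normalized counts this was 594 and 1366 in ASQC against 0 to 5.15 in AC(NST), and MS1166.1 had none, where 3 counts would have been 3.57. Among the desmosome genes picked by symbol at the outset, Dsc1 was the only one with more in MS1349.1 than in MS1210.1. It was kept out of the main test by the filter on counts. Without that filter edgeR gave a log2 fold change of 8.93 for ASQC against AC(NST) (SE 0.71, adjusted p = 0.000172). So large a fitted value depends on the prior count that edgeR adds, and Dsc1 entered this fit because it was high in ASQC.

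Dsc2, the desmocollin of simple epithelia, lies between these neighbours at 20030633 to 20059554, also on the minus strand. It was at 927, 2906, 4634, 777 and 1702 normalized counts in the high-amplified tumours in the same order, at 1468 in MS1166.1, and at 10255 and 2658 in the ASQC tumours MS1210.1 and MS1349.1. MS1210.1 was the highest of all, but MS1349.1 lay inside the range of the AC(NST) tumours. The log2 fold change by histotype was 1.65 (SE 0.67, adjusted p = 0.515 by edgeR).

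These 5 cadherin genes and their relatives form a cluster of 9 genes over 644 kb, in the order Dsc3, Dsc2, Dsc1, Dsg1c, Dsg1a, Dsg1b, Dsg4, Dsg3 and Dsg2. Dsc2 and Dsg2, the genes of simple epithelia, thus lie beside genes with another pattern. Shares within a family do not depend on the scaling of the libraries, and were formed after the levels had been seen. Dsg3 made up 4.96% to 13.2% of the reads of Dsg2 and Dsg3 in the 6 AC(NST) tumours. In MS1210.1 it made up 61.8% (Wilson 95% interval 61.0% to 62.5%) and in MS1349.1 29.0% (27.9% to 30.0%). Dsc1 and Dsc3 together made up 0.0361% to 2.29% of the desmocollin reads in AC(NST) tumours. They made up 14.3% (13.7% to 14.8%) in MS1210.1 but 44.6% (43.4% to 45.8%) in MS1349.1. The order of the ASQC tumours was therefore opposite for the desmogleins and the desmocollins. The intervals cover counting error and not the spread between tumours.

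**Figure D2:**
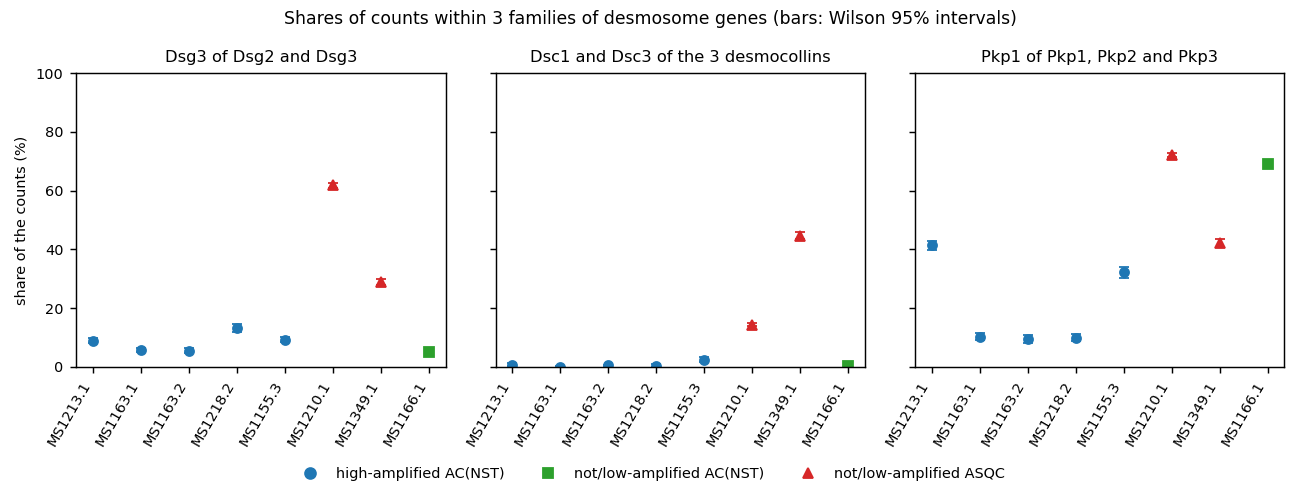
Share in % of the reads of a family in each of the 8 epithelial tumours, for Dsg3 among Dsg2 and Dsg3, Dsc1 with Dsc3 among the desmocollins, and Pkp1 among Pkp1, Pkp2 and Pkp3, with Wilson 95% intervals as bars. The ASQC tumours stood above every AC(NST) tumour in the first and second panels, and in the third MS1166.1 (69.2%) stood beside MS1210.1 (72.2%).

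Of the plakophilins, Pkp1 was higher in each of the 3 not/low-amplified tumours than in any high-amplified tumour, the AC(NST) MS1166.1 included. Pkp1 is the plakophilin of stratified epithelia and lies on chromosome 1 at 135871395 to 135919207, on the minus strand. Its normalized counts were 1452, 316, 209, 243 and 1072 in MS1213.1, MS1163.1, MS1163.2, MS1218.2 and MS1155.3. In the not/low-amplified tumours they were 7608 in MS1210.1, 7509 in MS1166.1 and 1892 in MS1349.1. All 3 lay above all 5 high-amplified tumours, and the AC(NST) MS1166.1 was at the level of the higher ASQC tumour. The means were 5670 ± 3272 (SD, n = 3) and 658 ± 569 (SD, n = 5). The log2 fold change for high-amplified against not/low-amplified tumours was -3.07 (SE 0.73), an 8.42-fold difference, with an adjusted p of 0.0727 by edgeR and 0.000781 by DESeq2. Among AC(NST) tumours alone, where MS1166.1 is the single not/low-amplified tumour, it was -3.54, a value that takes its spread from the high-amplified tumours alone. In that tumour Pkp1 was 7.01 times the median of the other 7, while for the 10 tested genes nearest to it on chromosome 1 this ratio ran from 0.49 to 2.77.

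Pkp1 made up 69.2% of the reads of Pkp1, Pkp2 and Pkp3 in MS1166.1, against 42.1% and 72.2% in the ASQC tumours MS1349.1 and MS1210.1. In the high-amplified tumours it made up 9.32% to 41.4%, and the highest of them, MS1213.1, came within the interval of MS1349.1 (40.9% to 43.4%).

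Pkp3, a plakophilin of most epithelia, lies on chromosome 7 at 141078218 to 141090510, on the plus strand. It was at 969.8, 1205, 625.1, 1314 and 1141 normalized counts in the high-amplified tumours in the order above, and at 1588, 1753 and 2132 in MS1166.1, MS1349.1 and MS1210.1. These groups did not overlap either, though the difference was small, with a log2 fold change of -0.78 (SE 0.28, adjusted p = 0.146 by edgeR). By histotype it was 0.77 (SE 0.34, adjusted p = 0.562). Pkp3 was the one desmosome gene for which neither comparison showed overlap.

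Plakoglobin and desmoplakin are the common core of the plaque. Among the desmosome genes picked by symbol at the outset, Jup and Dsp had the highest medians per kb of exon over AC(NST) tumours. They also had the highest means over ASQC tumours. Perp, a desmosome gene outside that set, had a median of 1130.5 per kb over AC(NST) tumours, between Jup and Dsp. Its mean over ASQC tumours, 3554 per kb, was above both. In MS1166.1 Pkp1 (1495 normalized counts per kb) was above Jup (1440.5) and Dsp (842). Jup and Dsp are the 2 desmosome genes for which a promoter sequence was at hand (RefSeq, GRCm38.p6), and the 250 bases before the start that RefSeq gives, which for Jup lies upstream of the GENCODE start used below, are shown 5′ to 3′ because both genes were expressed in all 8 epithelial tumours with no called difference. The Dsp stretch lies on the plus strand of chromosome 13 at chr13:38151044-38151293 and the Jup stretch on the minus strand of chromosome 11 at chr11:100397791-100398040. Capitals mark GGGCGG on either strand, the core letters of sites for Sp1 and Klf factors, which 32.7% of 32851 promoters hold in a window of the same length.
Dsp: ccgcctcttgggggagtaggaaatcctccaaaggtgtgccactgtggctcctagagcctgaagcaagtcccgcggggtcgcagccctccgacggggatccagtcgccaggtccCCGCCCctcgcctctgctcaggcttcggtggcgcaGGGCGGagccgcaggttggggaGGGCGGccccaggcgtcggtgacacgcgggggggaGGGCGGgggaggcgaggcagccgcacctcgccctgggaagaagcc
Jup: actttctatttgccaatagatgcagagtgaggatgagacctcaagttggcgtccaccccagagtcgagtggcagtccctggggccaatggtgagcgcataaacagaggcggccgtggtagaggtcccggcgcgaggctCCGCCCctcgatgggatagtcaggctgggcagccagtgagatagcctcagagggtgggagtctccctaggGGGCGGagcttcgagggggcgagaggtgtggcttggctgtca
The Dsp stretch is 72.4% G and C and holds these letters 4 times, and the Jup stretch is 62.0% G and C and holds them 2 times, 1 of them on the opposite strand in each. Neither stretch holds TGANTCA, the letters of AP-1 sites, which are in 6.75% of promoters. The letters AACCGGT of Grainyhead-like factors, in 0.831% of promoters, were not found either. Nor was the TATA box, searched as TATAAA, which 12.4% of promoters hold. These are matches of letters and say nothing of binding.

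Jup binds the tails of desmosomal and also of classical cadherins, and lies on chromosome 11 at 100368958 to 100397763, on the minus strand, 1.93 Mb beyond the end of Erbb2. It was at 12662, 6959, 3486, 11979 and 7824 normalized counts in the high-amplified tumours MS1213.1, MS1163.1, MS1163.2, MS1218.2 and MS1155.3, and at 19781, 9233 and 9271 in MS1210.1, MS1349.1 and MS1166.1. The high-amplified tumours spread 3.63-fold among themselves and enclosed 2 of the 3 not/low-amplified tumours. Although Jup lies on the chromosome that carries Erbb2, its level was no higher in the high-amplified tumours, with a log2 fold change of -0.55 (SE 0.47, adjusted p = 0.502 by edgeR). Of the 10 tested genes nearest to Jup 8 also had a negative value, where 51.0% of all genes tested had a positive one. The 10 ran from -6.30 for Krt16, a keratin of activated squamous epithelium, to 0.52 for Fkbp10, and none was called. Krt14, Krt16 and Krt17 were among the 8, and P3h4, Klhl11 and Hap1 lay between -0.15 and -0.08.

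Dsp ties the plaque to keratin filaments and lies on chromosome 13 at 38151294 to 38198577, on the plus strand. Its normalized counts were 7570.5, 9811, 8223, 5055 and 9465 in the high-amplified tumours in the same order, 8135 in MS1166.1, 6936 in MS1349.1 and 25603 in MS1210.1. MS1210.1 alone stood out, and the other ASQC tumour lay below most AC(NST) tumours. The log2 fold change by histotype was 1.02 (SE 0.48, adjusted p = 0.595 by edgeR) and became -0.24 without MS1210.1.

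Ppl, a plakin of the cell periphery, lies on chromosome 16 at 5086291 to 5132421, on the minus strand. It was at 2131 normalized counts in MS1213.1 and at 837, 803, 861 and 924 in MS1163.1, MS1163.2, MS1218.2 and MS1155.3. MS1166.1 was at 1030.1, and the ASQC tumours MS1210.1 and MS1349.1 at 7599 and 2588. Both ASQC tumours lay above the AC(NST) tumours, and the lower one by 1.21-fold, MS1213.1 being the highest AC(NST) tumour. The log2 fold change by histotype was 2.21 (SE 0.46), with an adjusted p of 0.139 by edgeR and 0.00512 by DESeq2.

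Taking the 9 tested desmosome genes by histotype, Dsc3, Dsg3, Pkp3 and Ppl, 4 of 9, did not overlap and were higher in ASQC, where 5.3% of all genes tested did so. An unadjusted p under 0.05 was found for 5 of 9, Dsc2 being the fifth, against 4.38% of all genes. DESeq2, run without the filter on counts, called 4 of the 10 higher in ASQC (Dsg3, Dsc1, Dsc3 and Ppl) and gave no p-value for Pkp1. It called 1.94% of the 15509 genes to which it gave an adjusted p. With edgeR without the filter, Dsg3, Dsc1 and Dsc3 were called, where 0.91% of genes were. The median log2 fold change of the 9 genes was 1.42, beside -0.08 for all genes tested. The genes had been chosen with such results known, so that these counts describe them and are no separate support. No desmosome gene was called in the edgeR fit with amplification status as a covariate, where 0 of all genes were, nor among parous tumours alone, where 1 was.

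By amplification, none of the 9 was called in either direction by edgeR, where 0.435% of all genes were called higher in high-amplified and 0.485% higher in not/low-amplified tumours. Every one of the 9 log2 fold changes was negative, that is, lower in high-amplified tumours, with a median of -1.13 beside 0.02 for all genes. All 8 epithelial markers were negative too, and their summed level on the 9-tumour scale was 36240 to 57710 in high-amplified against 87543 to 146831 in not/low-amplified tumours, with no overlap. Taken singly, Epcam, Krt18 and Cldn3 did overlap between these groups, and Cdh1, Krt8, Krt19, Cldn4 and Cldn7 did not. Krt19 ran from 98.6 to 4057 normalized counts in high-amplified and from 17329 to 25709 in not/low-amplified tumours. The part of these marker levels in the desmosome levels was not tested. An unadjusted p under 0.05 was found for Dsc3, Dsg3, Pkp1, Pkp3 and Ppl, 5 of 9, against 11% of all genes in that direction. Pkp1 and Pkp3, 2 of 9, did not overlap, against 8.04%. DESeq2 called 5 of 10 higher in not/low-amplified tumours (Dsg3, Pkp1, Dsc1, Dsc3 and Ppl), against 4.51% of the 15187 genes with an adjusted p. By edgeR without the filter Dsc1 alone was called, against 0.757%. Among not/low-amplified tumours Dsc1 and Dsc3 were high in the ASQC tumours alone, and MS1166.1 held 0 reads of Dsc1 and 1 of Dsc3. Among AC(NST) tumours alone the log2 fold change of Dsg3 was 0.42, of Dsc2 0.54 and of Ppl 0.09, with MS1166.1 as the single not/low-amplified tumour. Without MS1166.1, Dsg3 and Dsc3 were called by edgeR.

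**Figure D3:**
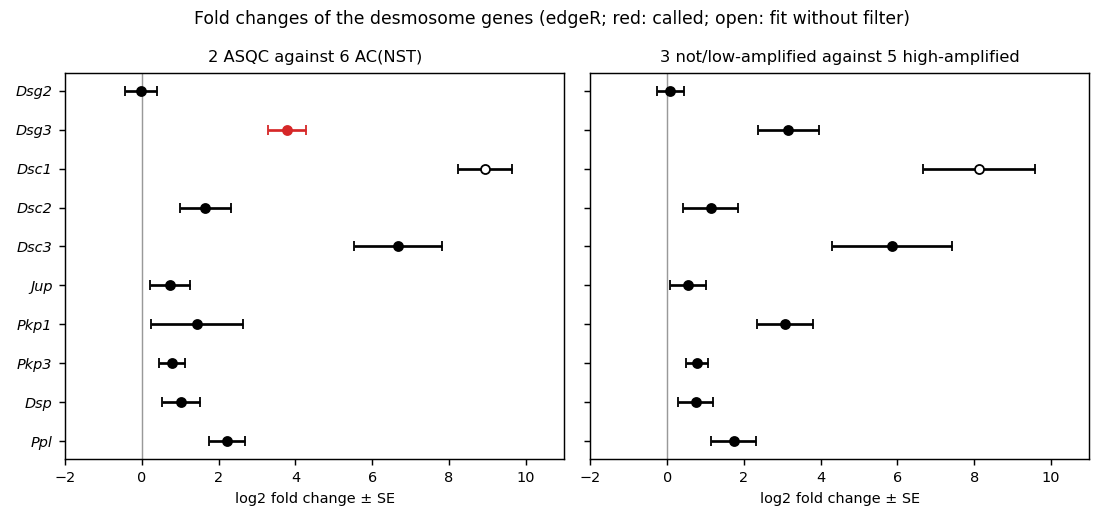
Log2 fold change ± SE of each desmosome gene by edgeR, for 2 ASQC against 6 AC(NST) tumours (left) and for 3 not/low-amplified against 5 high-amplified tumours (right, positive where higher in not/low-amplified), with the called gene in red and Dsc1, from the fit without the filter on counts, as an open point. Dsg3 at 3.78 was the only called gene on the left and no gene was called on the right.

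Compared per kb of exon, the order of the genes changed with the histotype. The median normalized count per kb in AC(NST) tumours was 1328 for Jup, 847 for Dsp, 540.1 for Dsg2, 324 for Pkp3, 300.3 for Dsc2, 138 for Pkp1, 129 for Ppl, 43.1 for Dsg3, 0.47 for Dsc3 and 0.20 for Dsc1. Neighbours in this order overlapped in range over the 6 AC(NST) tumours, except that Dsg3 (34.6 to 68.3) lay below Ppl (116 to 309) and above Dsc3 (0 to 6.44). In ASQC tumours the mean per kb was 2254 for Jup and 1684 for Dsp, and Dsc2 came next with 1223. Dsg2 went from place 3 to place 8 with 495, behind Dsg3 with 640.4, Pkp1 with 945, Ppl with 739 and Pkp3 with 537. The means of Dsc1 and Dsc3 were 194 and 174.5. These means lean on MS1210.1. In MS1349.1 alone Dsg2 (429.9 per kb) was above Pkp1 (376), Ppl (375) and Dsg3 (208), and Dsc1 (271) was above Dsg3.

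Between the ASQC tumours, 9 of the 10 genes were higher in MS1210.1, from 1.22-fold for Pkp3 to 5.17-fold for Dsg3. The summed level of 10 squamous keratinocyte markers on the 9-tumour scale was 31798 in MS1210.1 and 7008 in MS1349.1, against 133 to 1117 in the high-amplified tumours and 1291 in MS1166.1. Of these 10 markers, Krt1, Krt6a, Krt16, Ivl, Lor and Sprr1b were at 0 in at least 1 AC(NST) tumour. The markers did not share one order between the ASQC tumours. In MS1210.1 and MS1349.1, Krt6a was at 14818 and 2496 normalized counts and Krt16 at 12808 and 1626. Sprr1a, Tgm1 and Sbsn were also higher in MS1210.1. Krt1, Krt10, Ivl, Lor and Sprr1b were higher in MS1349.1, with Krt10 at 140 against 42.9 in MS1210.1. The part of squamous content in the desmosome levels was not tested.

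Over the 8 epithelial tumours the 10 genes varied together in most pairs. Of the 45 pairs 42 had a positive Pearson r of log2(normalized count + 1), with a median of 0.57. The highest was 0.95 for Dsc1 and Dsc3, followed by 0.93 for Dsg3 and Ppl, and the lowest was -0.22 for Dsg2 and Jup. The genes outside the 10 whose profile was most like the mean of their standardized levels were Bpifc (r = 0.984), Dynap (0.973), Ncbp2 (0.971), Dnase1l2 (0.960) and Eva1c (0.946), over 8 tumours. Bpifc stood at 483 and 88.4 normalized counts in MS1210.1 and MS1349.1 and at 17.8 or fewer in the others, and Ncbp2 at 902, 612 and 358 to 496. These values are descriptions over libraries that share 2 high tumours.

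The other genes of the desmosome, 9 in number, were mixed. Of the 7 that were tested, none was called by edgeR in either comparison, and by histotype 3 log2 fold changes were positive and 4 negative, with a median of -0.20. By histotype 3 had an unadjusted p under 0.05, all higher in ASQC (4.38% of all genes), and by amplification 5, all higher in not/low-amplified tumours (11% of all genes). The list ran from Dsg1b (log2 fold change 7.56 for ASQC against AC(NST), SE 1.24, adjusted p = 0.0526) to Dsg1c (-1.72, SE 1.76, adjusted p = 0.827). Dsg1b, a form of the desmoglein of upper epidermal layers, was at 1086 and 604 normalized counts in MS1210.1 and MS1349.1, 21.9 in MS1155.3 and 4.97 or fewer in the other AC(NST) tumours. Dsg1a, Dsg1b and Dsg1c are near copies of each other, and since reads with a unique position alone were kept, their levels are uncertain.

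Perp, a membrane protein of desmosomes that p53 and p63 switch on, was chosen here after its values were seen. It was at 1065 to 2687 normalized counts in the high-amplified tumours, and the ASQC tumours MS1210.1 and MS1349.1 were at 9718 and 4158, but MS1166.1 was at 81323. That was 35.1 times the median of the other 7 tumours, while for the 10 tested genes nearest to Perp this ratio ran from 0 to 1.69. By amplification Perp had a log2 fold change of -3.93 (SE 0.82, adjusted p = 0.0569 by edgeR). Pkp4, the plakophilin relative p0071, was likewise highest in MS1166.1, at 7051 against 1168 to 2662 in the other 7. Pkp2, by contrast, lay between 797.6 and 1749 in all 8 tumours.

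Among 41 genes of the desmosome beyond the 10, of adherens junctions, of hemidesmosomes and of the keratins that these junctions anchor, 38 were tested and none was called by edgeR in either comparison. By amplification 19 of the 38 had an unadjusted p under 0.05 and were higher in not/low-amplified tumours (11% of all genes) and 2 were higher in high-amplified tumours (11.8% of all genes). By histotype 12 had one, all higher in ASQC (4.38%). Of the 41 genes, DESeq2 called 12 higher in not/low-amplified tumours (4.51% of all genes with an adjusted p). It called 2 higher in high-amplified tumours (5.94%) and 8 higher in ASQC (1.94%). DESeq2 gave no p-value by histotype for Perp, Col17a1, Krt5, Krt6a, Krt6b, Krt14, Krt15, Krt17 and Krt19. By amplification it gave none for Krt14 and Krt17. There these genes were not tested by DESeq2. For the 10 adherens junction genes the median log2 fold change by histotype was 0.08, from -0.42 for Ctnnb1 (beta-catenin) to 2.6 for Cdh3 (P-cadherin, of basal cells). By amplification it was -0.54, from -1.95 for Cdh3 to 0.23 for Ctnnd1 (p120 catenin). For the 9 hemidesmosome genes, which fasten basal cells to the matrix, the medians were 0.69 and -0.24. Col17a1, a transmembrane collagen of hemidesmosomes, was at one end (4.98 by histotype, -4.22 by amplification) and Dst (dystonin) at the other (-1.58 and 2.19).

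None of the keratins was called by edgeR. The 4 simple keratins had medians of 1.08 by histotype and -1.64 by amplification, with Krt19 (1.71, -3.38) and Krt18 (-0.29, -0.997) at the ends. The 3 basal keratins had medians of 3.63 and -3.12, with Krt14 (4.12, -4.92) and Krt5 (2.96, -2.12) at the ends. The 5 squamous keratins tested had medians of 6.20 and -6.02. Krt6b, a keratin of activated squamous cells, was highest (7.98, -7.23), Krt17 was lowest by histotype (-0.05) and Krt10 smallest by amplification (-2.40). Krt17 was at 8476 normalized counts in MS1166.1 against 1588 and 1724 in the ASQC tumours, and so, like Pkp1, was not lower in the not/low-amplified AC(NST).

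**Figure D4:**
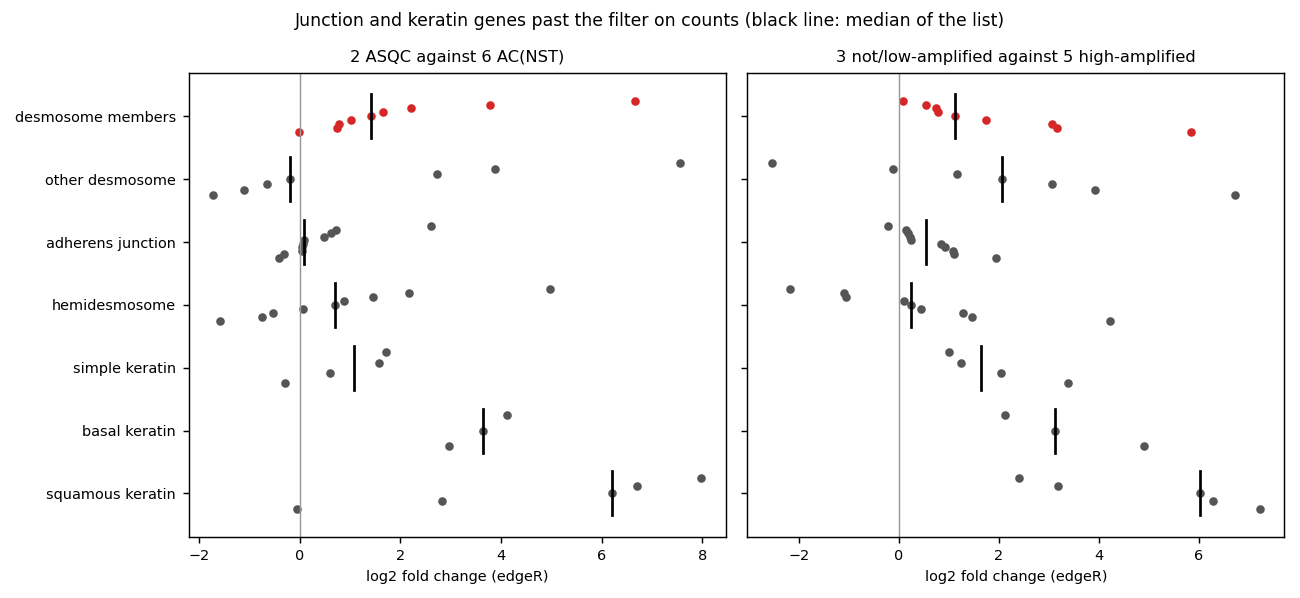
Log2 fold change by edgeR of the tested genes of each list for 2 ASQC against 6 AC(NST) tumours (left) and 3 not/low-amplified against 5 high-amplified tumours (right), each point being 1 gene and each black line the median of its list. The medians of the desmosome genes were 1.42 and 1.13 in these directions, those of the squamous keratins 6.20 and 6.02, and those of the adherens junction genes 0.08 and 0.54.

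In the sarcoma, a tumour of mesenchymal type and the only one of its kind, most of the 10 desmosome genes were nearly absent, with no replicate to test. On a scale common to the 9 tumours, 8 of the 10 were below every epithelial tumour, as were 20.5% of the 14007 genes. Dsc1 and Dsc3 had 0 counts, which allows up to 3 counts or a level of 4.03, and 1 AC(NST) tumour was at 0 for each as well. Dsg3 had 1 count, Pkp1 2, Ppl 5, Pkp3 10, Dsg2 19, Dsc2 29 and Dsp 89. The sarcoma level of Dsp was 120 against 4797 to 24553 in the epithelial tumours, and that of Dsg2 25.5 against 1680 to 5329. Among the 10, Jup was the exception, with 803 counts and a level of 1080, against 3362 in the lowest and 18970 in the highest epithelial tumour. The lowest epithelial tumour was 3.11-fold above the sarcoma for Jup, whereas it was 18.9-fold above for Dsc2 and 115-fold above for Ppl. Outside the 10, Pkp4 was also retained, with 285 counts and the lowest epithelial tumour 2.94-fold above the sarcoma. Some partners of classical cadherins lay within the epithelial range and others did not. Ctnna1 (alpha-catenin) was at 7373 in the sarcoma against 4876 to 8062, and Ctnnd1 at 1274 against 727 to 1753. Below the range were Ctnnb1, at 11716 against 13121 to 70868, and Mllt4, at 1127 against 1731 to 6273. Vcl was above it, at 11760.5 against 3371 to 6523. Cdh1 (E-cadherin) was at 76.6 against 6542 to 15043. The sarcoma also held 8300 in summed skeletal muscle markers, against at most 858 in the epithelial tumours.

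**Figure D5:**
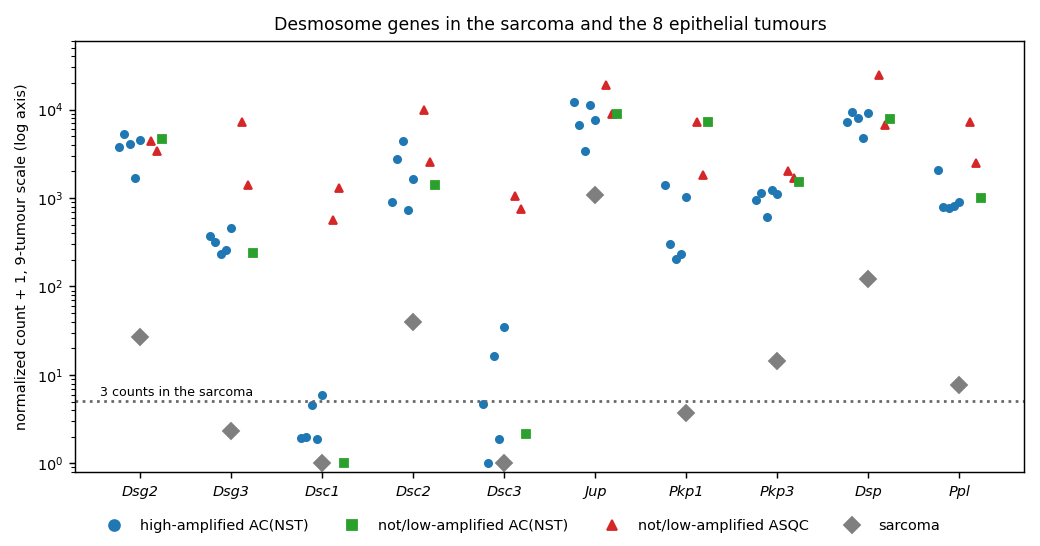
Normalized count + 1 on a log axis, with size factors over the 9 tumours, of each desmosome gene in the sarcoma (grey diamonds) and the 8 epithelial tumours, with the level of 3 counts in the sarcoma (4.03) as a dotted line. The sarcoma lay below every epithelial tumour for 8 genes, was closest for Jup, and had 0 counts of Dsc1 and Dsc3.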

How the data were processed

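RNA of snap-frozen tumours was depleted of ribosomal RNA, made into strand-specific libraries and sequenced in pairs. The authors aligned reads to mouse build 38 with STAR, allowing up to 3 mismatches and keeping unique positions, and counted them with HTSeq-count. Versions and the strand option of the counting are not given in the sources used here, so reads of a gene on the opposite strand may be included, which touches Dsg2 and Dsp (each overlapped by 1 annotated gene on the opposite strand). Pkp1 is overlapped over 2696 bases by 1 annotated gene on the same strand, which is not among the genes counted. Any effect of that overlap on the Pkp1 counts was not tested. For 9 tumours the authors deposited counts per gene. For the 8 epithelial tumours they also deposited a signal, the same counts divided by 1 size factor per tumour (0.776 to 1.42), called normalized counts here.

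Counts were tested with edgeR 4.0.16 (TMM, quasi-likelihood test, no covariates, Benjamini-Hochberg adjustment over the 14007 genes that reached 10 counts in 3 or more of 8 tumours) for amplification (5 against 3) and histotype (2 against 6), under R 4.3.3. The scripts were tested on simulated data. Alternatives were DESeq2 1.42.0, limma 3.58.1 on log2(normalized count + pseudocount) with pseudocounts of 0.1, 1 and 10, other scalings, no filter, parity or amplification as a covariate, subsets and each tumour left out. The sarcoma was scaled with size factors over 9 tumours and not tested. Positions and exon lengths are from GENCODE M21 (GRCm38). Depth limits a gene with 0 counts to 3 counts.

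The desmosome genes and all lists were chosen with earlier results of these data known. Named were the 10 genes, from each other list the called genes and those with the largest and smallest log2 fold change, the 5 genes most correlated with the 10, the 5 tested genes on each side of Jup, and Erbb2. Perp, Pkp4, Pkp2, Krt17, Ctnna1, Vcl, Mllt4, Cdh1 and the genes around Pkp1 and Perp were added after their values were seen. The labels do not say whether tumours are independent beyond their mouse numbers, and p-values measure the spread between them. The biological coefficient of variation was 0.534 by amplification and 0.574 by histotype.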

Additional observations from a re-analysis of the deposited data

Results flagged for a closer look

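In groups of 5 or 6 tumours, a tumour was singled out where its gap to the nearest other tumour, over the range of the group, passed Dixon's critical value (0.71 for 5 and 0.625 for 6). For the desmosome genes and the other genes of the desmosome 13 of 32 groups were singled out, that is 40.6%. The rule would pick about 5% by chance in normal values, and it singled out 16.4% of the same groups over all 14007 genes tested. The groups of 5 are contained in those of 6. MS1166.1 stood above the other AC(NST) tumours for Pkp1 (7509 normalized counts, gap 0.83 of the range), Pkp4 (7051, 0.815) and Perp (81323, 0.98). MS1213.1 stood above the other high-amplified and above the other AC(NST) tumours for Ppl (2131) and for Evpl (1338), which encodes the plakin envoplakin. MS1155.3 did so for Dsg1b (21.9) and for Cdsn (65.7), which encodes corneodesmosin of the upper epidermis. MS1163.1 did so for Dsg1c (269).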

How the results depend on the processing

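Amplification, histotype and parity overlap, the histotype comparison rests on 2 tumours, and 1 library per tumour limits every call. No paired analysis was possible because, by the mouse numbers, no mouse gave tumours to more than 1 group. Desmosome genes called higher in not/low-amplified tumours numbered 0 by edgeR, 5 by DESeq2, 4 by DESeq2 on the genes past the filter (added after seeing the data), 1 with no filter and 0 to 2 with 1 tumour left out (2 without MS1166.1). Those called higher in ASQC numbered 1 by edgeR, 4 by DESeq2, 3 by DESeq2 on the genes past the filter, 3 with no filter, 2 by limma with a pseudocount of 10, and 0 by limma with pseudocounts of 0.1 and 1, with amplification as a covariate, in parous tumours alone, and with the MS1163 tumours added together or left out (the last added after seeing the data). With 1 tumour left out they numbered 0 to 2, being 0 without MS1213.1, MS1163.1, MS1163.2, MS1218.2 or MS1210.1 and 2 without MS1155.3 or MS1166.1. Over its 20 alternatives the log2 fold change of Dsg3 by histotype ran from 2.13 to 4.52, and that of Dsc3 from 5.83 to 9.53.

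Of the 41 other junction and keratin genes, 38 past the filter, DESeq2, on all genes or on those past the filter, called 2 higher in high-amplified tumours, and leaving out 1 tumour gave 0 to 2 (2 without MS1218.2). In not/low-amplified tumours 12 were higher by DESeq2, 9 by DESeq2 past the filter, 2 with no filter, 1 in AC(NST) tumours alone and 0 to 3 with 1 tumour left out (3 without MS1218.2, 1 without MS1166.1). In ASQC 8 were higher by DESeq2, 5 by DESeq2 past the filter, 5 with no filter, 4 by limma with a pseudocount of 10 and 0 to 3 with 1 tumour left out (3 without MS1155.3, 1 without MS1166.1).

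The log2 fold change by amplification turned positive for Dsc2 (0.54), Dsg3 (0.42) and Ppl (0.085) in AC(NST) tumours alone, for Dsc2 (0.081) and Dsp (0.084) without MS1210.1, and for Dsg2 with the sarcoma included (0.33) or without MS1218.2 (0.11). By histotype it turned for Dsp without MS1210.1 (-0.24), for Pkp1 with amplification as a covariate (-0.62), and for Dsg2 in parous tumours (0.11), with the MS1163 tumours left out (0.092) or added together (0.032), by limma (0.048 with each pseudocount), and without MS1163.1 (0.085), MS1155.3 (0.027), MS1349.1 (0.16) or MS1166.1 (0.019). Apart from the construction of each alternative the cause was not tested. The fold changes of Jup and Pkp3 kept their signs in every alternative of both comparisons. So did those of Dsc3 where it was tested, which it was not in AC(NST) tumours alone.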

Other observations

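Of the other plaque and envelope genes, Evpl, the partner of Ppl in the cornified envelope, was at 5904 normalized counts in MS1210.1, 1338 in MS1213.1, 934 in MS1349.1 and 239 to 523 in the other AC(NST) tumours. Its log2 fold change by histotype was 2.73 (SE 0.71, adjusted p = 0.247 by edgeR). Dsg4, the desmoglein of hair and upper epidermis, had 79 and 729 reads in the ASQC tumours MS1210.1 and MS1349.1, and no AC(NST) tumour held more than 6. Like Dsc1, Dsg1a, Dsg1c and Pkp2, it was thus higher in MS1349.1 than in MS1210.1, though for Pkp2 the difference was small (843 against 798 normalized counts). The 9 desmosome genes besides Dsc1 that were picked by symbol at the outset had the reverse order. Ctnnb1 was at 73640 normalized counts in MS1166.1, the tumour with the most Perp and Pkp4, against 13576 to 25184 in the other 7.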
